A study of Mus musculus with 6 samples.

Results

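The 39 genes described here encode heat shock proteins, their co-chaperones and the heat shock transcription factors Hsf1 and Hsf2, out of 21938 protein-coding genes annotated on mouse chromosomes 1 to 19, X and Y. The genes were chosen by symbol, and all 39 were found in the GENCODE annotation of GRCm38 (mm10). A gene was counted as having a promoter peak when a called peak overlapped the 2.5 kb on either side of any of its transcription start sites (TSS), and peaks in the gene body were counted beside these. ChIP-seq for H3K27ac, the acetylated form of lysine 27 of histone H3 that sits at active promoters and enhancers, was done on bulk retina of wild-type (WT) mice that were 3 months old when pressure was first raised. In the 3 4xIOP retinas the intraocular pressure (IOP) had been raised on one side to 30 mmHg for 1 h, 4 times at biweekly intervals, and the 3 control retinas came from untreated contralateral eyes. All retinas were taken on day 2 after the fourth elevation. The labels do not say which control and treated eye came from the same mouse, and the strain is not stated in them. Because the tissue is bulk retina, fewer cells carrying the mark and less mark per cell cannot be told apart.

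Each retina is represented by 1 list of peaks called in that library alone, called control 1 to 3 and 4xIOP 1 to 3 below after the replicate numbers of the labels. The peak names inside 4 of the 6 lists (control 1, control 2, 4xIOP 1 and 4xIOP 2) carry the name of the other group, and those of control 3 and 4xIOP 3 carry that of their label. The lists were not regrouped, so each direction holds for the groups as labelled. Lists held 16195 to 36509 peaks, with the most in control 3 and the fewest in 4xIOP 3. The total reads per library are unknown, and the background recovered from the lists was 87.4 to 173 fragments per 10 kb. Of 10 photoreceptor marker genes 9 or 10 had a promoter peak in every list, whereas 1 or 2 of 6 Müller glia markers, 0 or 1 of 6 ganglion cell markers, 0 or 1 of 8 lens markers and 0 or 1 of 6 vascular markers did. No promoter peak was called at any marker of retinal pigment epithelium, of microglia and macrophages or of other tissues.

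Heat shock proteins are molecular chaperones that bind unfolded or newly made proteins, keep them from aggregating and pass them on for folding or degradation. HSP70 proteins work in cycles driven by J-domain partners and nucleotide exchange factors, HSP90 acts later on signalling proteins, and chaperonins fold proteins in closed chambers. In stressed cells the transcription factor HSF1 forms trimers that bind heat shock elements, inverted repeats of the letters GAA, while ATF6 and its partners act on ER stress elements of genes for chaperones of the endoplasmic reticulum (ER).

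The promoter sequences of RefSeq (GRCm38.p6, 250 bases before to 50 after a start) covered 31 of the 39 genes, all but Hspa8, Cryab, Hsp90aa1, Hsp90ab1, Hspa9, Hspa13, Dnajc5 and Hsf1. A 3-unit heat shock element, spelled GAANNTTCNNGAA on either strand, was found in 5 of the 31 (16.1%) and in 0.575% of 16522 genes in the table. The shorter head-to-head pair GAANNTTC, which the 3-unit element contains, occurred in 13 of 31 (41.9%, against 8.44% of all genes), and the tail-to-tail pair TTCNNGAA occurred in 6 of 31 (19.4% against 8.78%). An ER stress element, spelled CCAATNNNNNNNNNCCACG, occurred in Hspa5, Hsp90b1 and Dnajc3 (9.68% of 31, against 0.170% of all genes). Hspd1 and Hspe1 share the same heat shock letters between their starts, which were counted for both genes in each of these heat shock counts. The counts describe letters in a window and not bound sites. The longest runs of alternating heat shock units are shown first, because the peaks are compared with their place below, and the capitals mark every heat shock element of the 3 spellings.
Hspd1/Hspe1: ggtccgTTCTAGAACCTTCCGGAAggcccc
Chordc1: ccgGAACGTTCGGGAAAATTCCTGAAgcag
Dnajb6: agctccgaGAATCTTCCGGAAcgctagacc
Hsph1: agtaaaatgctgcagaTTCTGGAAAGTTCt
The first lies between the start sites of Hspd1 and Hspe1, which run apart from a shared promoter (chr1:55088053-55088082, shown on the Hspe1 strand), within the annotated span of Hspd1 but in none of its basic exons. The Chordc1 (chr9:18292260-18292289) and Dnajb6 (chr5:29735844-29735873) elements are on the plus strand and the Hsph1 element (chr5:149636287-149636316) is on the minus strand, and all 30 bases of each are exonic in the annotation. The ER stress elements follow, with the element in capitals.
Hspa5: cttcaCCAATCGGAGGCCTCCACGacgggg
Hsp90b1: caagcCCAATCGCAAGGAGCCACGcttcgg
Dnajc3: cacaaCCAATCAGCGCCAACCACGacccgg
That of Hspa5 (chr2:34772020-34772049, plus strand) spans bases -65 to -47 from the RefSeq start, and its window falls in an exon of a longer GENCODE transcript. Those of Hsp90b1 (chr10:86705632-86705661, minus strand) and Dnajc3 (chr14:118937822-118937851, plus strand) lie outside any annotated gene. The Hsp90b1 promoter holds a second ER stress element on the opposite strand, at -107 to -89 from its start, which is not printed and was not placed against the peaks.

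Promoters of the heat shock and chaperone genes were widely acetylated in both groups. A promoter peak was present in all 6 lists for 31 of the 39 genes (79.5%), in some lists for 7 and in none for Cryab. Over all protein-coding genes the share with a peak in all 6 lists was 39.5%. By list, 94.9%, 87.2% and 97.4% of the 39 genes had a promoter peak in control 1 to 3, and 92.3%, 87.2% and 84.6% did in 4xIOP 1 to 3. The same shares over all genes were 48.6%, 46.2% and 56.9% in control and 47.4%, 45.7% and 44.6% in 4xIOP. The list with the highest share in both sets was control 3, the longest list, and that with the lowest was 4xIOP 3, the shortest. Control lists averaged 93.2% ± 5.34 (SD, n = 3) and 4xIOP lists 88.0% ± 3.92 (SD, n = 3). The 4xIOP lists thus stood at -5.13 percentage points from control, about 1 SD of the control lists, and at -4.67 percentage points over all genes. With the same number of top peaks taken from each list the gap was -0.855 percentage points for the members and -1.32 for all genes, and with a −log10 q of at least 5 it was -2.56 for the members and -5.62 for all genes. The gap of the members was -2.99 percentage points without control 3 and -8.12 without control 2.

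**Figure D1:**
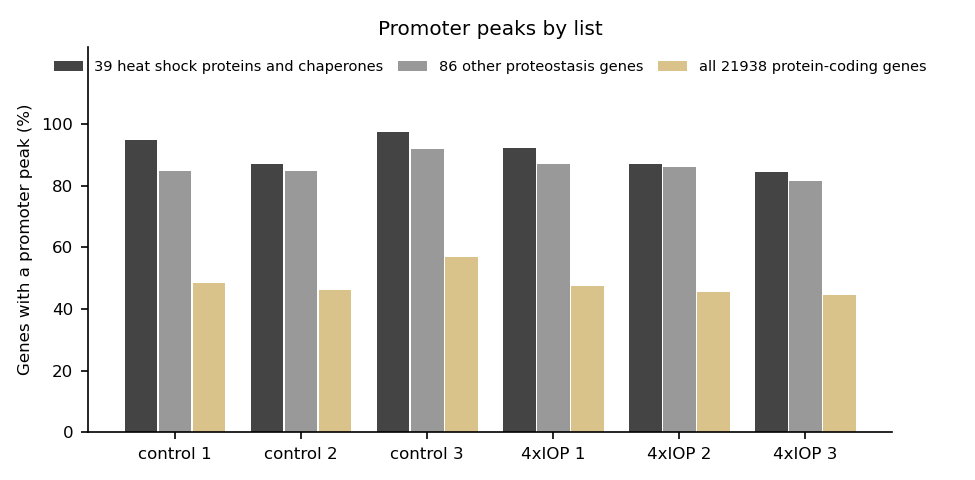
Bars give the percentage of genes with a promoter peak in each of the 6 lists, for the 39 heat shock protein and chaperone genes, 86 other proteostasis genes and all 21938 protein-coding genes. The members sit between 84.6% and 97.4% in every list, and all genes between 44.6% and 56.9%.

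A second list of 86 proteostasis genes, holding chaperonin and prefoldin subunits, further J-domain proteins, small heat shock proteins, co-chaperones and ER folding enzymes, showed a similar level. Of these, 69 (80.2%) had a promoter peak in all 6 lists and 7 in none. The group of further heat shock and small heat shock genes stood lowest, with 6 of 16 marked in all lists and 6 in none, and 18 of 19 co-chaperones were marked in all. Stub1, the ubiquitin ligase that acts with HSP70, had a promoter peak in all 3 control lists and in 1 4xIOP list. Vbp1, a prefoldin subunit, and Pdia4, an ER disulfide isomerase, had one in all 3 control and in 2 4xIOP lists, and Hspb9 in 2 control and all 3 4xIOP lists. Over all genes the pattern of Stub1 was found in 1.06%, that of Vbp1 and Pdia4 in 3.62% and that of Hspb9 in 1.18%. These genes are named because they lacked a peak in lists of 1 group only. Cct2, Dnajc4, Dnajc9, Hspa12a, Serpinh1 and Hsf4 lacked one in some lists of both groups.

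Presence of a peak did not separate the groups for any of the 39 genes. A promoter peak in all control and no 4xIOP lists was found for 0 of 39 genes, against 79 of 21938 genes overall (0.36%). In the other direction it was found for 0 of 39 and for 0 of 21938 (0%). Leaving out 4xIOP 3 brought Bag3 into the first count (1 of 39, 2.56%, where 0.716% of all genes were counted), and leaving out control 2 brought in Hspb1 (1 of 39, 2.56%, where 1.26% were). Taking only the 2 lists whose own names match their labels, 5 of the 39 genes had a promoter peak in control 3 and none in 4xIOP 3 (12.8%), beside 2751 of all 21938 genes (12.5%), with no replicate behind these values.

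The inducible HSP70 genes Hspa1a and Hspa1b lie next to each other on the minus strand of chromosome 17 and encode nearly the same protein. The fold of the highest promoter peak over its local background, the measure used below, was 5.69, 4.77 and 7.34 at Hspa1a in control 1 to 3 and 5.74, 4.15 and 3.55 in 4xIOP 1 to 3. The lowest values were those of 4xIOP 2 and 4xIOP 3, and 4xIOP 1 lay within the control range. Folds are not on a common scale between lists. Over the 8669 genes with a promoter peak in all lists, the median fold was 7.30 in control 3 and 5.07 to 5.50 in the others. At Hspa1b the fold was 2.81, 2.87 and 3.33 in control and 3.32 and 2.88 in 4xIOP 1 and 2, with no peak in 4xIOP 3. The 4xIOP 1 value came from a peak upstream of the start, and the exonic peak of that list had 3.23. The start of Hspa1l, a related HSP70 gene, lies 547 bp from that of Hspa1a. The peak at Hspa1a was narrow, covering 305 to 439 bp of the promoter window, and its summit lay 179 to 285 bp downstream of the TSS in the exon in all 6 lists. At Hspa1b the summit of the exonic peak lay between 223 and 706 bp downstream. The 150 bases before the start of each gene are shown because the copies can hardly be told apart by short reads there, with the head-to-head heat shock pair in capitals.
Hspa1a: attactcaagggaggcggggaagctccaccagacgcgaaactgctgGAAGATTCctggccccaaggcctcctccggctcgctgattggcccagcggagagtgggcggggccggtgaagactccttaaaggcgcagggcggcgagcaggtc
Hspa1b: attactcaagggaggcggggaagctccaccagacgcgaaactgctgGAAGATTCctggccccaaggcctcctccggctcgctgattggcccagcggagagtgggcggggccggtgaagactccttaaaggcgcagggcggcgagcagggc
These are chr17:34972157-34972306 and chr17:34959239-34959388, outside any annotated gene. Over the 300 bases of the RefSeq promoters the copies differ at 4 positions, C44T, T47C, T249G and C276T, with the Hspa1a base first and positions counted from 1 at the 5′ end. Of all 100-base windows in Hspa1a 47.1% also occur at Hspa1b, and within the called peaks this share was 47.4% to 78.2% at Hspa1a and 75.0% to 100% at the exonic peaks of Hspa1b. The division of reads between the copies is therefore uncertain. The upstream peak at Hspa1b in 4xIOP 1 held no such shared window.

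The other HSP70 genes differed in how often they were marked. Hspa8 encodes the constitutive HSC70 of cytosol and synapse. Its fold was 7.68, 6.40 and 7.57 in control and 5.85, 6.69 and 5.31 in 4xIOP. Control 1 and 3 lay above every 4xIOP list, while control 2 lay among them. Hspa2, an HSP70 known best from testis, had a promoter peak in control 1 (fold 4.51), control 3 (8.13) and 4xIOP 1 (3.92) and in no other list. Hspa14, a ribosome-associated HSP70, was marked in all lists, with a fold of 6.93, 5.67 and 8.32 in control, against 6.22, 4.77 and 4.89 in 4xIOP. The control and 4xIOP values of Hspa14 overlapped through control 2 and 4xIOP 1.

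HSP110 proteins release ADP from HSP70. Hsph1, the stress-inducible HSP110, had a fold of 4.19, 3.52 and 5.34 in control, against 6.22 and 4.34 in 4xIOP 1 and 2, with no peak in 4xIOP 3. The highest of these values was therefore in a 4xIOP list and the only missing peak in another. Its constitutive relatives Hspa4 and Hspa4l were marked in all 6 lists, with folds from 4.50 to 6.01 and from 5.16 to 7.22.

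Small heat shock proteins, which hold unfolded proteins without using ATP, had the fewest peaks. Cryab, the αB-crystallin of lens, muscle and glia, had no promoter or gene body peak in any list, and neither did Hspb2, which starts within 1 kb of it on the other strand. Hspb1 (HSP27) had a promoter peak in control 1 (fold 4.38) and control 3 (3.56) only. Hspb8, which works with Bag3 in selective autophagy, had one in control 3 (4.49) and 4xIOP 1 (4.65). The peaks at Hspb1, Hspb8 and Bag3 had 13 to 16 fragments at the summit, where the fewest at any peak of a list was 9 to 12. A missing peak says that no pile-up there passed the threshold of that list, and the lists do not show whether the mark was present below it. The 150 bases before the Hspb1 start (chr5:135887769-135887918, plus strand, outside any annotated gene) hold the head-to-head pair at 2 places, and they are shown with single 30-base windows from Bag3 and Hspb8 because these genes carry heat shock units and yet had weak or missing peaks.
Hspb1: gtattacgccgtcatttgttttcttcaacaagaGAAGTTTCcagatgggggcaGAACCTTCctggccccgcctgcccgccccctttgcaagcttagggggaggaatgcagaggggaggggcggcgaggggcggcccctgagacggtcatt
Bag3: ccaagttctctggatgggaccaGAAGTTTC
Hspb8: agaagccaggaGAAGTTTCtaggctcgcga
The Bag3 window (chr7:128523603-128523632, plus strand) and the Hspb8 window (chr5:116422844-116422873, minus strand) have 17 and 21 exonic bases. Of 6 genes in the RefSeq table without a promoter peak in some list, 5 held the head-to-head pair (Hspa1b, Hsph1, Hspb1, Hspb8 and Bag3, all but Hspa2). Of 25 genes marked in all 6 lists, 8 held it. The other spellings did not split this way: the 3-unit element was in 1 of the 6 and 4 of the 25, and the tail-to-tail pair in 1 of the 6 and 5 of the 25. The same split was not made over all genes, so no link between heat shock units and missing peaks can be read from these counts.

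**Figure D2:**
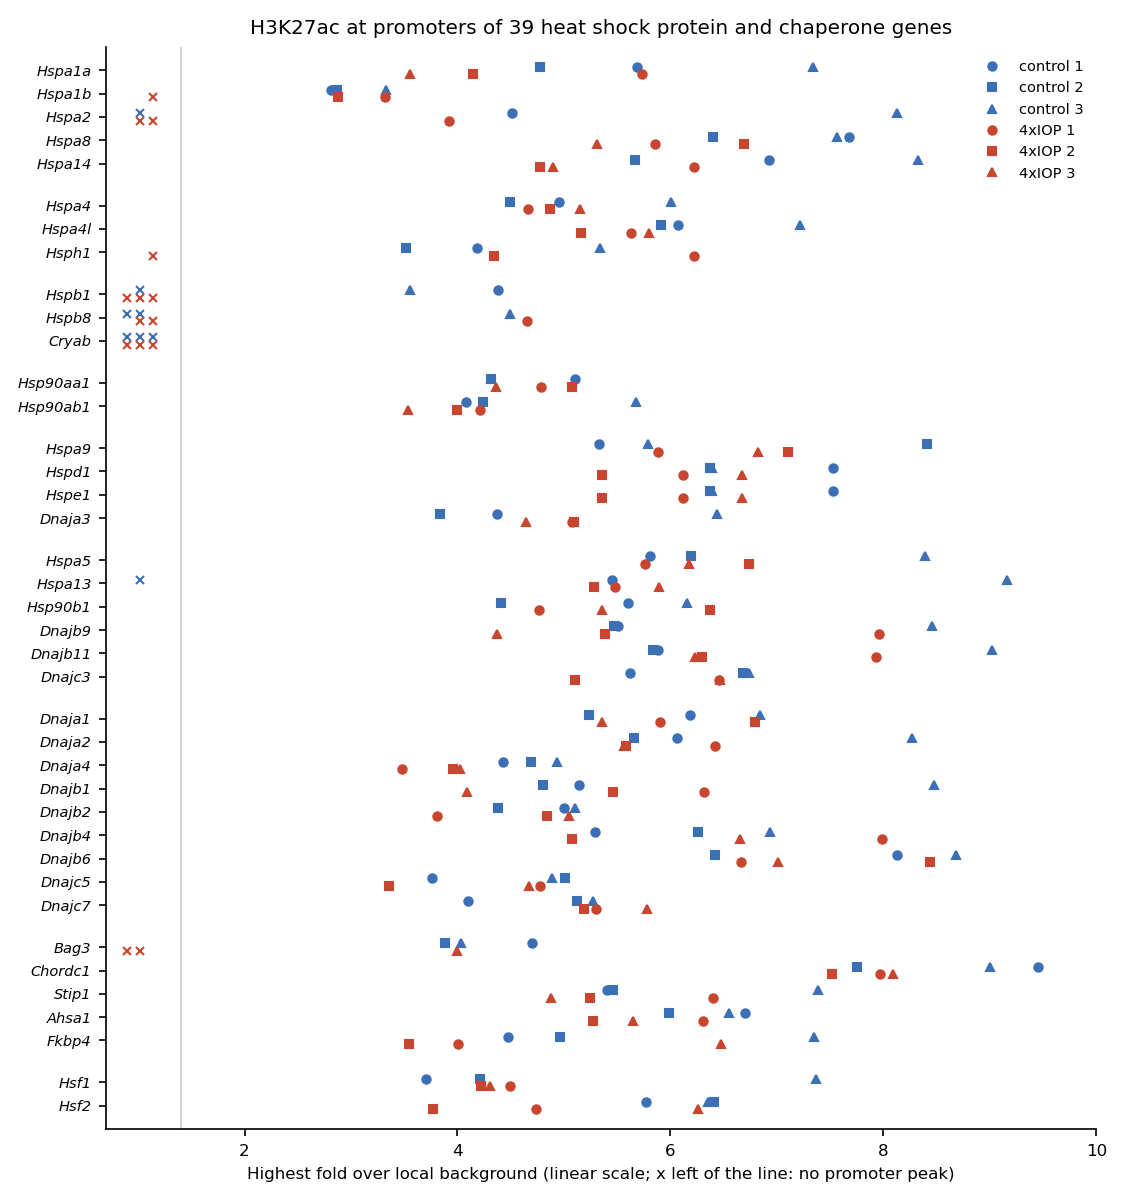
Points give the highest fold over local background among the promoter peaks of each of the 39 genes, on a linear axis, with colour for group and shape for replicate, and crosses at the left mark lists with no promoter peak. Genes are grouped by family from HSP70 (top) to heat shock factors (bottom). Crosses gather at Hspa2, Hspb1, Hspb8, Cryab and Bag3, and Chordc1 reaches 9.45.

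Cytosolic HSP90 promoters were marked in every list. For Hsp90aa1, the inducible HSP90 gene, the fold was 5.10, 4.32 and 4.31 in control and 4.78, 5.07 and 4.36 in 4xIOP. For the constitutive Hsp90ab1 it was 4.08, 4.24 and 5.67 in control and 4.21, 3.99 and 3.54 in 4xIOP. Both sets overlapped between the groups. These folds were low among marked genes although the summits held many fragments, 47 to 109 at Hsp90aa1 and 29 to 96 at Hsp90ab1. The local background at the highest Hsp90aa1 peaks was 10.0 to 24.5 fragments in the 6 lists.

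Among the mitochondrial chaperones, Hspd1 (HSP60) and Hspe1 (HSP10) form the chaperonin of the matrix and start 108 bp apart in opposite directions, so that both take their value from the same peak. This fold was 7.52, 6.37 and 6.39 in control and 6.12, 5.35 and 6.67 in 4xIOP. The 4xIOP 1 and 2 values lay below those of control, and 4xIOP 3 lay inside the control range. The heat shock element printed above lay inside a called peak in 4 lists, between peaks in control 2 and beside a peak in 4xIOP 3. Hspa9 (mortalin) had folds from 5.33 to 8.41. Dnaja3, its J-domain partner, had a fold of 4.37, 3.83 and 6.44 in control, against 5.08, 5.09 and 4.64 in 4xIOP. The annotated span of Dnaja3 includes a long upstream transcript, and its 5 to 9 peaks per list may belong in part to other genes.

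Promoters of ER chaperones were marked in every list except that of Hspa13 in control 2. Hspa5 encodes BiP, the ER HSP70 that senses unfolded proteins. Its fold was 5.81, 6.20 and 8.39 in control and 5.77, 6.74 and 6.18 in 4xIOP. Hspa13 had 5.45 and 9.16 in control 1 and 3 and 5.48, 5.29 and 5.89 in 4xIOP. Control 3, the list with the highest median fold over all marked genes, gave the highest value for both genes, and the remaining lists of the groups overlapped. Ranked within each list, Hspa5 stood higher in control 2, 4xIOP 2 and 4xIOP 3 than in control 3, while Hspa13 still stood highest in control 3. Dnajb11, a J-domain partner of BiP, had a fold of 5.88, 5.84 and 9.02 in control, against 7.93, 6.29 and 6.23 in 4xIOP. Folds ranged from 4.41 to 6.38 at Hsp90b1 (GRP94), from 4.38 to 8.46 at Dnajb9 and from 5.10 to 6.74 at Dnajc3.

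All 9 cytosolic J-domain genes were marked in all lists. Dnajb1 (HSP40), an inducible partner of HSP70 that is a classical HSF1 target, had a fold of 5.14, 4.80 and 8.48 in control, against 6.32, 5.46 and 4.09 in 4xIOP. Dnajb6, a suppressor of protein aggregation, had 8.13, 6.42 and 8.68 in control and 6.66, 8.44 and 7.01 in 4xIOP. The extremes of Dnajb1 lay in control 3 and 4xIOP 3, and the groups overlapped at both genes. Dnajc5, the cysteine string protein of synaptic vesicles, had a fold of 3.76, 5.01 and 4.88 in control, against 4.78, 3.36 and 4.67 in 4xIOP. Dnaja4 had 4.43, 4.69 and 4.93 in control and 3.47, 3.95 and 4.02 in 4xIOP, so that its groups did not overlap on this scale. The same held in this direction for 849 of the 8669 genes with a promoter peak in all lists (9.79%). Dnajc7, a co-chaperone with TPR repeats, had 4.10, 5.12 and 5.27 in control and 5.30, 5.19 and 5.78 in 4xIOP, and Dnajb4 had 5.29, 6.26 and 6.93 in control and 7.99, 5.08 and 6.65 in 4xIOP.

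Co-chaperones and the heat shock factors were marked in all lists except at Bag3. Bag3, which couples HSP70 and small heat shock proteins to autophagy, had a fold of 4.70, 3.88 and 4.04 in control and 3.99 in 4xIOP 3, with no peak in 4xIOP 1 and 4xIOP 2. Chordc1, a co-chaperone of HSP90, had 9.45, 7.75 and 9.0 in control and 7.97, 7.51 and 8.09 in 4xIOP. The Chordc1 element printed above lay inside a called peak in 5 lists and beside one in 4xIOP 3, and the Dnajb6 element lay inside a peak in all 6. Stip1, Ahsa1 and Fkbp4, further partners of HSP90, were marked in all lists, with folds between 3.54 at Fkbp4 and 7.38 at Stip1. Hsf1, which encodes the main regulator of the heat shock response, had a fold of 3.70, 4.21 and 7.37 in control, against 4.49, 4.22 and 4.31 in 4xIOP. Apart from control 3 the Hsf1 values lay within 3.70 and 4.49, and Hsf2 ranged from 3.77 to 6.41. The Hsf1 value of control 3 lay near the median fold of that list over genes marked in all lists, 7.30.

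Since lists differ in the number of peaks and in the median fold, each gene was also placed by the percentage of the 8669 genes with a promoter peak in all 6 lists whose fold in the same list was lower. The median fold percentile of the 31 members in this set was 53.0, 61.3 and 41.9 in control 1 to 3 and 63.0, 51.5 and 53.8 in 4xIOP 1 to 3, where 50 is the median of all genes placed. The control lists averaged 52.1 ± 9.72 and the 4xIOP lists 56.1 ± 6.07 (SD, n = 3), a gap of 4.03 that was smaller than either SD. Its direction rested on control 3, without which it was -1.04. It was 0.64 without 4xIOP 1, 9.87 without control 2, 6.31 without 4xIOP 2 and 6.21 without 4xIOP 3. The members stood higher by fragments at the summit, with a median percentile of 76.7, 72.7 and 66.3 in control, against 76.4, 72.8 and 66.8 in 4xIOP. A mean fragment percentile over 50 was found for 24 of the 31 genes and a mean fold percentile over 50 for 18. The median length of promoter window covered by peaks was 780 to 1303 bp for the members and 584 to 1179 bp for all genes placed, with the members longer in each list. Summed over the 39 genes, peaks covered 36.0, 31.7 and 46.9 kb of promoter windows in control and 35.6, 34.0 and 25.5 kb in 4xIOP.

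The extremes of the ranking named single genes. The highest mean fold percentiles over the 6 lists were those of Chordc1 (91.5), Dnajb6 (85.0) and Dnajb11 (75.6), and the lowest were those of Hsp90ab1 (17.8), Dnaja4 (18.8) and Dnajc5 (23.9). By fragments the order differed. Hsp90ab1 reached a mean percentile of 74.4 and Hsp90aa1 one of 95.0, against 29.9 by fold, while Dnajb11 fell to 21.8. Hspa8 was high on both scales, with 96.3 by fragments and 70.4 by fold.

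**Figure D3:**
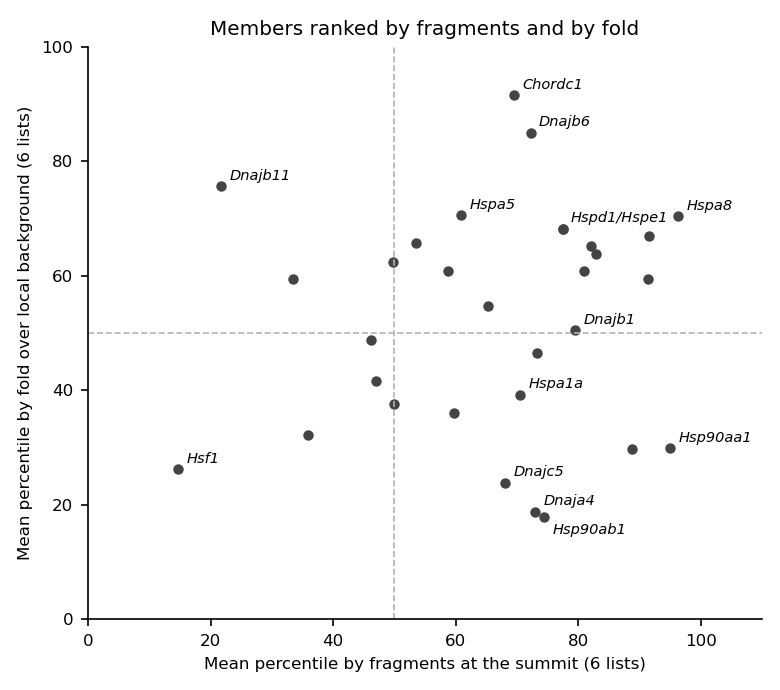
Each point is 1 of 31 members with a promoter peak in all 6 lists, placed by its mean percentile over the lists for fragments at the summit (x) and for fold over local background (y), and dashed lines mark 50. Hspa8 stands high on both axes, Hsp90aa1 far to the right at 29.9 by fold, and Chordc1 at the top.

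The ranked folds were compared between 4xIOP and control with limma over all 8669 genes. With Benjamini-Hochberg adjustment at 0.05, 0 genes were called higher and 0 lower in 4xIOP (0% each), and the smallest adjusted p was 0.9996. At an unadjusted p under 0.05 there were 270 genes (3.11%), and none of the 31 members was among them. This count of 0 was not kept under every setting, although no adjusted p passed in any. It was 2 of 31 (Dnajc7 and Hspa1a) with the fragment-length class as a term, where 3.89% of all genes passed. It was 3 of 32 without control 2 (Hspa9, Dnajb4 and Dnajc7) and 3 of 33 without 4xIOP 3 (Hsph1, Fkbp4 and Hsf2), where 3.77% and 5.28% of all genes passed. Of the members, 21 had a difference above 0 and 10 below, with a median of 0.06 normal scores, beside 4388 above and 4281 below over all genes. Hspd1 and Hspe1 are both counted although they share 1 peak. The split was 16 and 15 without control 3 (median 0.04), 17 and 14 without 4xIOP 1, and 22 and 10 without control 2 (median 0.18). A normal score is the rank within a list expressed in standard deviations of a normal curve. Of 69 other proteostasis genes in the fit, 1 had an unadjusted p under 0.05 and 0 an adjusted p under 0.05.

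The members with the smallest p in each direction were named without being called. In the direction of 4xIOP these were Dnajc7 (difference of 0.78 normal scores, SE 0.39), Dnajb4 (0.66, SE 0.43) and Dnaja3 (0.51, SE 0.37), with unadjusted limma p of 0.0594, 0.142 and 0.183. In the direction of control they were Hspa1a (-0.66, SE 0.42), Hspa14 (-0.56, SE 0.38) and Dnaja4 (-0.43, SE 0.38), with unadjusted limma p of 0.137, 0.155 and 0.262. Another coding gene starts 116 bp from Dnajc7 (Nkiras2), 339 bp from Dnajb4 (Fubp1) and 24 bp from Hspa14, so their peaks may belong in part to the neighbour. Coding starts also lie within 1 kb of Dnajb6, Dnajb11, Hsp90b1, Ahsa1 and Hsf1. Fragment length was not measured, and the length of the shortest called peak in a list stood in for it. By that length the lists fell into a longer class (control 1 with 4xIOP 1 and 2, 220 to 232 bp) and a shorter class (control 2 and 3 with 4xIOP 3, 187 to 195 bp). With this class as a term the unadjusted limma p was 0.0332 for Dnajc7 and 0.0454 for Hspa1a, each with an adjusted p of 0.997. Within the classes the difference of Hspa1a was -0.39 and -1.43, with a single list on one side of each, and that of Dnajc7 was 1.01 and 0.86. Without 4xIOP 3 the difference of Hspa1a was -0.24, and without 4xIOP 1 it was -1.12. That of Dnajb4 was 0.30 without 4xIOP 1 and 1.09 without 4xIOP 2, and that of Dnaja4 was -0.21 without control 2 and -0.27 without 4xIOP 1. The fold percentiles of Hspa1a were 55.1, 41.3 and 50.8 in control and 59.9, 22.1 and 6.32 in 4xIOP, so that 4xIOP 1 stood above and 4xIOP 3 far below the controls.

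No member had fold percentiles that did not overlap between the groups. Over all 8669 genes 341 were higher in every control list (3.93%) and 368 in every 4xIOP list (4.25%), and the count among the 31 members was 0 in each direction. On the fold as deposited 2 members, Hspa4l and Dnaja4, were higher in every control list, where 849 of 8669 genes were (9.79%), and 0 were higher in every 4xIOP list (0.15% of all genes). The percentiles of Dnaja4 were 22.6, 38.6 and 12.6 in control and 6.62, 17.3 and 14.9 in 4xIOP, and these overlapped.

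**Figure D4:**
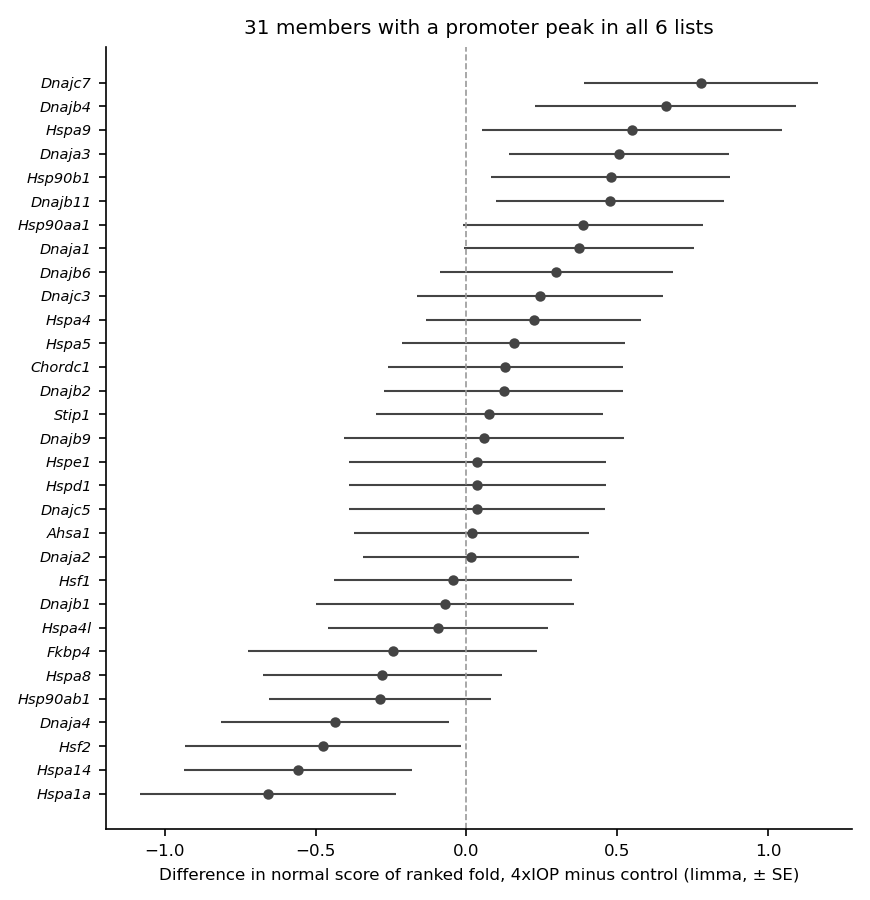
Points give the limma difference in normal score of ranked fold, 4xIOP minus control, for the 31 members with a promoter peak in all 6 lists, and bars give the SE. Values run from -0.66 at Hspa1a to 0.78 at Dnajc7, and no member passed the adjusted threshold.

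Around the start sites, peaks of the members often came in pairs. In 10 of the 31 members (Hspa8, Hspa14, Hspa4, Hsp90aa1, Hsp90ab1, Hspa5, Hsp90b1, Dnajb11, Dnajb1 and Dnajb2) the most upstream TSS lay outside every peak while summits stood on both sides of it within 2.5 kb, and this held in all 6 lists. By list this arrangement was found in 51.6%, 48.4% and 45.2% of members in control and in 45.2%, 58.1% and 58.1% in 4xIOP. Over all 8669 genes it was found in 28.3%, 27.3% and 30.9% in control and in 26.2%, 24.8% and 23.6% in 4xIOP. The share of members exceeded that of all genes in every list, in libraries where the members also had more fragments at the summit. The part of peak strength in this difference was not tested. How many of all 8669 genes kept the arrangement in all 6 lists was not counted. Another coding gene starts 24 bp from Hspa14, 176 bp from Dnajb11 (Tbccd1) and 302 bp from Hsp90b1 (Ttc41), so upstream summits there may belong to it. At Hspa8 the nearest summits stood at -638 to -342 bp and at 409 to 539 bp from the TSS, and at Hspa5 at -497 to -322 bp and at 293 to 354 bp, with negative values upstream.

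The printed ER stress elements lay between called peaks. In all 6 lists the element of Hspa5 fell between a pair of called peaks that were 321 to 395 bp apart, that of Dnajc3 between peaks 227 to 376 bp apart, and that of Hsp90b1 between peaks 386 to 824 bp apart. The 3-unit heat shock elements were placed differently from gene to gene. Those of Dnajb6 and Chordc1 lay in a peak in 6 and 5 lists, and that of Hsph1 in a peak in 4xIOP 1, between peaks in control 1 and 3, beside a peak in control 2 and 4xIOP 2 and over 2.5 kb from any peak in 4xIOP 3. A gap between called peaks says only that the pile-up there did not pass the threshold. It was as frequent at Hspa5, Dnajc3 and Hsp90b1 in 4xIOP as in control, with all 3 lists of each group.

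**Figure D5:**
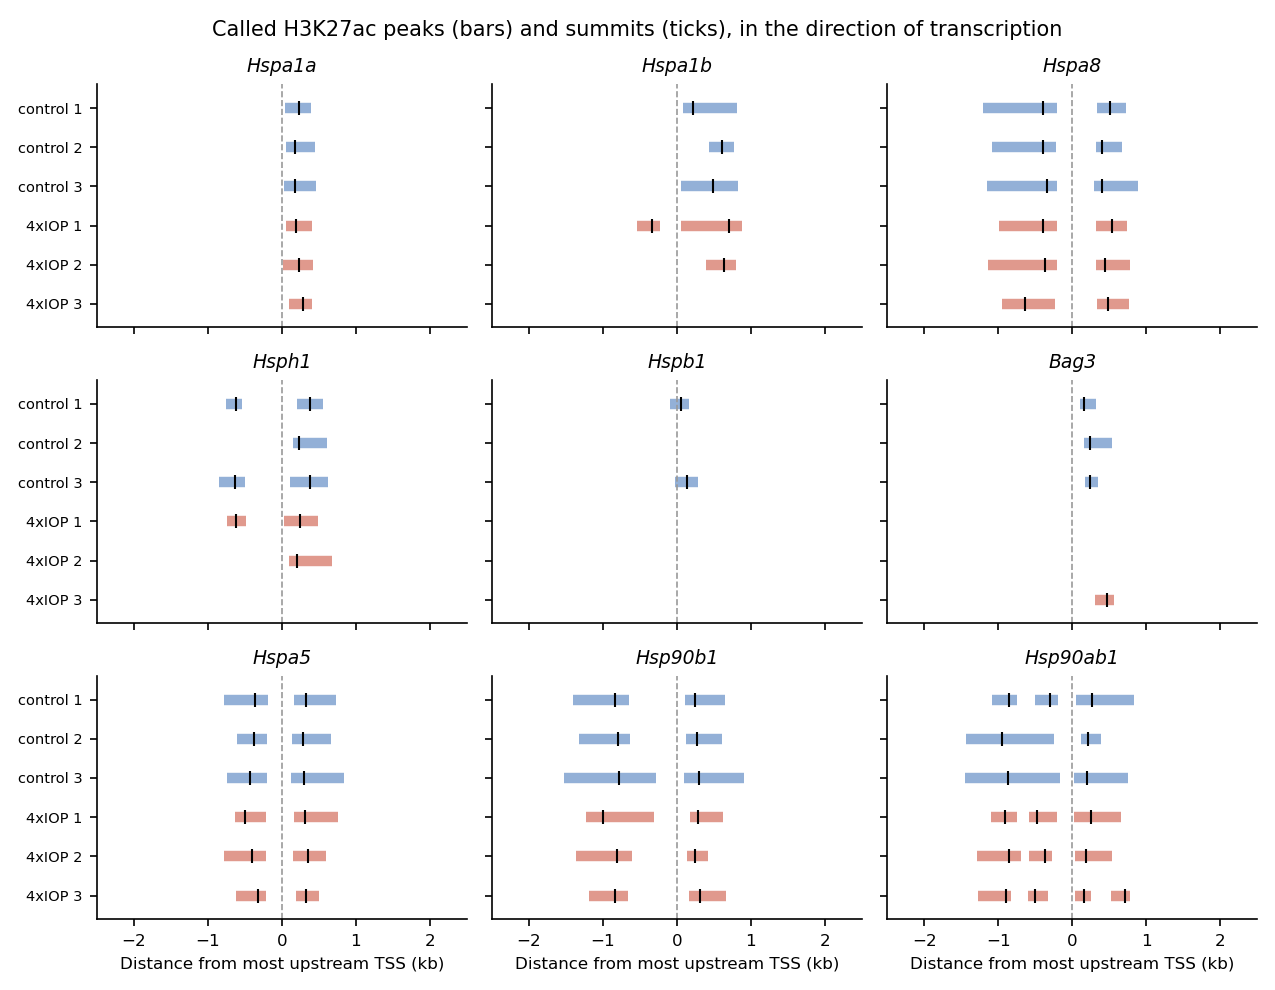
Bars show the called peaks and ticks their summits for 9 members in each of the 6 lists, by distance in kb from the most upstream TSS in the direction of transcription. Peaks flank the TSS of Hspa8, Hspa5, Hsp90b1 and Hsp90ab1 in every list, Hspa1a has 1 narrow downstream peak, and lines without a bar at Hspb1, Bag3, Hsph1 and Hspa1b are lists with no peak.

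Base composition of the 31 members with a RefSeq promoter also differed from the rest. Their median GC content was 64.3% over the 300 bases and their median number of CpG dinucleotides was 27, against 57.0% and 14 over 16522 genes. Values of a gene with several listed promoters were averaged. The number of CpG dinucleotides ranged from 13 at Ahsa1 and Hspb8 to 42 at Hspa4l.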

How the data were processed

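H3K27ac ChIP-seq lists of 3 control and 3 4xIOP retinas were analysed, grouped by the labels. The submitters' processing notes name STAR 2.7.8a, MACS2, HOMER, edgeR, bedtools 2.29.2 and mm10, with no role for each. In the deposited narrowPeak lists, the fold (a ratio of pile-up to local background) as well as p-value and q-value, each as −log10, were made by the authors per library. The deposited integer score was 10 times the −log10 q in at least 99.95% of peaks of a list and was not used. The study's methods state paired-end sequencing and a target depth per library. The depth each library reached was not known here, and the sources used here do not state an input control.

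Summit fragments and their local background were recovered from fold and p under a Poisson model (tolerance 0.001 on the −log10 scale, over 99.99% of peaks). The lists give no counts, so no count model was used. Peaks were assigned to genes of GENCODE vM21 basic (41525 TSS positions, at least 1 bp overlap), and 0 peaks passed a chromosome end of GRCm38. Genes with a promoter peak in all lists were ranked by fold within each list, turned to normal scores and fitted with limma 3.58.1 (R 4.3.3, group only, Benjamini-Hochberg at 0.05), after a test on simulated scores. The simulated noise was independent between genes and lists, so that test does not give the power in these lists. With 3 against 3 an exact permutation test of a single gene cannot give a p under 0.1, so none is given. Each limma p sets the difference between the groups against the spread of lists within them, with information on spread shared across genes. The main fit is unpaired, because which control and treated eye came from the same mouse is unknown. Python 3.11.15 with numpy 2.4.6, pandas 2.3.3 and scipy 1.17.1 did the rest.

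Values in every list are given for a fixed set of inducible and major chaperones, for each gene lacking a promoter peak in some list, for the 3 highest and 3 lowest by mean fold percentile and for the 3 members with the smallest limma p on either side. The genes, the gene lists and this rule were chosen with earlier results of these data known. The alternatives are a −log10 q of at least 5, the 16195 top peaks of each list, a 1 kb window, the summit in the window, other ranked values, a fragment-length class (shortest peak above or below 200 bp), a replicate block, leaving out each list, and the 2 lists whose names match. The fold as deposited without ranking was added after seeing the data.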

Additional observations from a re-analysis of the deposited data

How the results depend on the processing

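With the 2 lists whose names match their labels, the difference between 4xIOP and control was -12.8 percentage points in the share of members with a promoter peak, 12.3 in the median fold percentile and -21.4 kb in covered length, 5 members (12.8%, all genes 12.5%) were marked in control 3 and not in 4xIOP 3, and 12 and 21 of 33 members stood higher in control (36.4%, all genes 48.0%) and in 4xIOP (63.6%, all genes 52.0%); these are the longest and the shortest list, and no replicate stands behind these values. Each list left out in turn gave -8.12 to -2.99 percentage points, -1.04 to 9.87 percentiles, -9.73 to -2.13 kb, 0 to 1 member marked in all control and no 4xIOP lists (0% to 2.56%, all genes 0.374% to 1.26%; Bag3 without 4xIOP 3, Hspb1 without control 2), 0 to 3 members without overlap higher in control (0% to 9.68%, all genes 7.07% to 10.5%), 1 to 3 higher in 4xIOP (3.23% to 9.68%, all genes 7.78% to 10.1%), and 179 (without control 1) to 479 (without 4xIOP 3) genes at an unadjusted limma p under 0.05, against 270. On the fold as deposited, an alternative added after seeing the data, 2 of 31 members were higher in every control list, where 9.79% of all genes were. Ranking by recovered fragments turned the difference of Dnaja3 to -0.056, and the cause was not tested. A −log10 q of at least 5, equal list length, a 1 kb window and the summit rule left the counts of members without overlap or marked in 1 group alone at 0, and moved the share, the median percentile and the covered length by less than 1 SD. Members at an unadjusted p under 0.05 numbered 0 to 3 without 1 list (all genes 2.05% to 5.28%), 2 of 31 with the fragment-length class (all genes 3.89%), 1 of 31 (Dnajc7) when ranked by −log10 p (all genes 3.76%) or by fragments (3.39%), and 1 of 34 (Hsph1) over genes marked in at least 2 lists per group (3.30%). No adjusted limma p passed under any setting in which limma was run. Same-numbered lists did not deviate together (r of -0.017, -0.044 and -0.144 over 8669 genes). Only 3 lists per group were compared, and they also differ in length, so these values cannot show whether same-numbered eyes share a mouse. With the replicate block 0 genes were called higher and 0 lower, and 237 had an unadjusted p under 0.05. The peaks of Hspb1, Hspb8 and Bag3 held 13 to 16 fragments, near the fewest called in a list.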

Other observations

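Gene body peaks outside the promoter windows were few and were found at 7 of the 39 genes (Hspa14, Hsp90aa1, Dnaja3, Dnaja4, Dnajc5, Dnajc7 and Bag3). By list there were 8, 6 and 19 in control and 8, 8 and 5 in 4xIOP. In control 1 an intronic peak of Bag3 stood 6193 bp downstream of its TSS with a fold of 3.68. Hsp90aa1 had intronic peaks at -5563 to -4564 bp from the nearest start of its basic transcripts in control 1, control 3, 4xIOP 1 and 4xIOP 2, within the longer annotated span of the gene.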
